A study of Homo sapiens with 18 samples.

Results

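The genes here encode enzymes that use S-adenosylmethionine on transfer RNA, ribosomal RNA or the cap of messenger RNA, mostly to add a methyl group. Genes of the protein partners that these enzymes need are included. The genes were chosen by symbol from a list of 42 genes, and all 42 were found among the 37096 named genes of the deposited table. Each gene was placed in a single role group by the place and substrate of its product, although some products also act elsewhere. The role groups hold 23 genes for tRNA in the nucleus or cytosol and 9 for tRNA or rRNA in mitochondria. A further 7 are for rRNA in the nucleus or cytosol and 3 for the mRNA cap. Poly-A RNA was sequenced from HEK293T cells, a human embryonic kidney line of wild-type genotype that is easily transfected. Cells carried either the empty pLEX vector or MethionaseNLS, an enzyme that degrades methionine, with a nuclear localisation signal. The 6 groups of 3 libraries were empty vector in DMSO at 12 h, methionase in DMSO at 12 h, empty vector in DMSO at 24 h, methionase in DMSO at 24 h, empty vector with 5 µM Vps34-IN1 at 24 h and methionase with 5 µM Vps34-IN1 at 24 h. Vps34-IN1 inhibits VPS34, the class 3 phosphatidylinositol 3-kinase, and was given for 12 h. DMSO is its vehicle, and the labels do not give a vehicle time for each group. The groups do not include an inactive methionase, so a difference between methionase and empty vector cannot be told apart from the effect of expressing a foreign nuclear protein. The promoter that drives the transgene is not given in the sources used here. The labels do not say that replicates were separate cultures, so the p-values cover only how these samples vary, and that variation may be technical.

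S-adenosylmethionine is made from methionine and ATP, and every enzyme of this set that is catalytically active consumes it. Methyl groups on tRNA affect its folding, stability and decoding, those on rRNA are added while ribosomes are assembled, and the methylated cap is needed for mRNA stability and translation. Several of these enzymes are obligate pairs of a catalytic and a supporting subunit, such as TRMT61A with TRMT6 and METTL1 with WDR4. TRMT112 is a small protein that stabilises several different catalytic subunits, among them TRMT11, METTL5, BUD23, ALKBH8 and THUMPD3.

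The sequences of some of these genes bear on how their values can be read. METTL2A (chr17:62423867-62450822, plus strand, 9 exon blocks) and METTL2B (chr7:128476729-128506602, plus strand, 9 exon blocks) both encode enzymes that place 3-methylcytidine in the anticodon loop of tRNA. In GENCODE annotation of GRCh38 their coding sequences were each 1134 bases long, differed at 15 bases and were 98.7% identical. Bases 775 to 864 of each coding sequence are shown because they hold 4 of the differences, printed in capitals, while the rest of the stretch is the same in both genes.
METTL2A: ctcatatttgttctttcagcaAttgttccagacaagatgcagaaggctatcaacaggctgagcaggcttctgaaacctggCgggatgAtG
METTL2B: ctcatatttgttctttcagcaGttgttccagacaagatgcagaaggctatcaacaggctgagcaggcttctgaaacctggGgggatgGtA
Of all 50-base stretches of the METTL2A transcripts, 31.1% also occurred in another named gene, most often METTL2B. For METTL2B the share was 19.8%, most often with METTL2A. The reads of these genes are therefore reported as uncertain, since the counting could have split or dropped those that match both. NSUN5, a 28S rRNA methyltransferase, shared 37.7% of its 50-base stretches with other named genes, most often the pseudogene NSUN5P1, and is uncertain for the same reason. EMG1, an 18S rRNA methyltransferase gene, shared 58.1% of its 50-base stretches with other named genes, most often LPCAT3. It overlaps LPCAT3 on the opposite strand, and the values of EMG1 are uncertain in every comparison below.

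Promoters, taken as 250 bases before to 50 bases after the start, were found for 37 of the 42 genes in RefSeq GRCh38.p14. The E-box CACGTG, the letters bound by MYC, USF and TFEB family proteins, reads the same on both strands. It was found in 5 of the 44 promoters of these 37 genes, or 11.4%, and in 7.26% of the 35116 promoters of the table. Counted by gene, that is 13.5% of the 37 and 8.77% of the 27305 genes of the table, with no test of the difference. The matches are shown with 10 bases on either side where the window allowed, in capitals, because the genes of both subunits of the tRNA 1-methyladenosine enzyme, TRMT6 and TRMT61A, are among them.
TRMT6, chr20:5950514-5950539, minus strand: cggcgtgcaaCACGTGggggcggtgc
TRMT61A, chr14:103529218-103529243, plus strand: gtcgcggaggCACGTGtggagccccg
NOP2, chr12:6568242-6568266, minus strand: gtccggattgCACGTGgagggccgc
MRM1, chr17:36601593-36601618, plus strand: gcgagggaccCACGTGggagcctggg
CMTR2, chr16:71289433-71289458, minus strand: aacgttggcgCACGTGactccggccc
The NRF1 motif, given by the capitals in the next line and also the same on both strands, was found in 1 of the 44 promoters, that of TFB1M (2.27%, beside 1.24% of all promoters). TFB1M dimethylates adenosines of the mitochondrial small-subunit rRNA.
TFB1M, chr6:155314597-155314626, minus strand: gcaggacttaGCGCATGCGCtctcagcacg
These matches are descriptions of the letters and do not show that a factor binds there.

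Total reads assigned to named genes ranged from 18278586 to 20825232 per library. The line markers KRT8, KRT18, CDH2, NEFM, NEFL and VIM were read in every library, while CD3E, PECAM1, CDH5 and DCN had at most 4.06 normalised reads. ALB had at most 20.3 and the fibroblast collagen gene COL1A1 had 402 to 672. The share of reads on mitochondrial rRNA differed between groups and moved with the comparisons below. It was 0.206 to 0.292% with the empty vector at 12 h, 0.324 to 0.383% with methionase at 12 h and 0.480 to 0.657% with the empty vector at 24 h. At 24 h it was 0.938 to 2.01% with methionase in DMSO, 0.985 to 1.35% with the empty vector in Vps34-IN1 and 1.89 to 2.47% with methionase in Vps34-IN1. Its part in the results was not tested.

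The 42 genes together took 0.186 to 0.228% of the reads of a library. Levels are given as normalised reads, which are reads divided by the size factor of the library, and are compared between genes only per kilobase of exon. TRMT112 (1902 normalised reads per kb, mean of 18 libraries), the 18S rRNA methyltransferase gene BUD23 (1889) and the cap ribose methyltransferase gene CMTR1 (689.5) had the highest levels. MRM1, a mitochondrial 16S rRNA methyltransferase gene, had the lowest level at 10.7 per kb, and its 10.6 to 29.5 normalised reads per library give it little precision. CMTR2 (28.2 per kb) and LCMT2 (45.7 per kb) were the next lowest.

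The genes differed widely in how far their group means spread. The highest group mean of LCMT2 was 3.10 times its lowest, that of TRMT1L 2.59 times, of NSUN2 1.99 times, of TRMT11 1.93 times and of RNMT 1.88 times. WDR4 (1.08 times), BUD23 (1.12) and CMTR1 (1.12) had the narrowest spreads. Methionase in DMSO at 24 h was the group with the lowest mean for 17 of the 42 genes, and methionase with Vps34-IN1 for 10. The empty vector at 12 h held the highest mean for 10, methionase at 12 h for 12 and the empty vector with Vps34-IN1 for 10. These counts were not made over all genes tested, so they do not set the 42 genes apart. In a principal component analysis of the 42 genes, the first component held 61.9% of the variance and the second 15.9%. The drug-treated empty vector group lay between 1.06 and 1.37 on the second component, and every other library lay at or below 0.03.

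**Figure D1:**
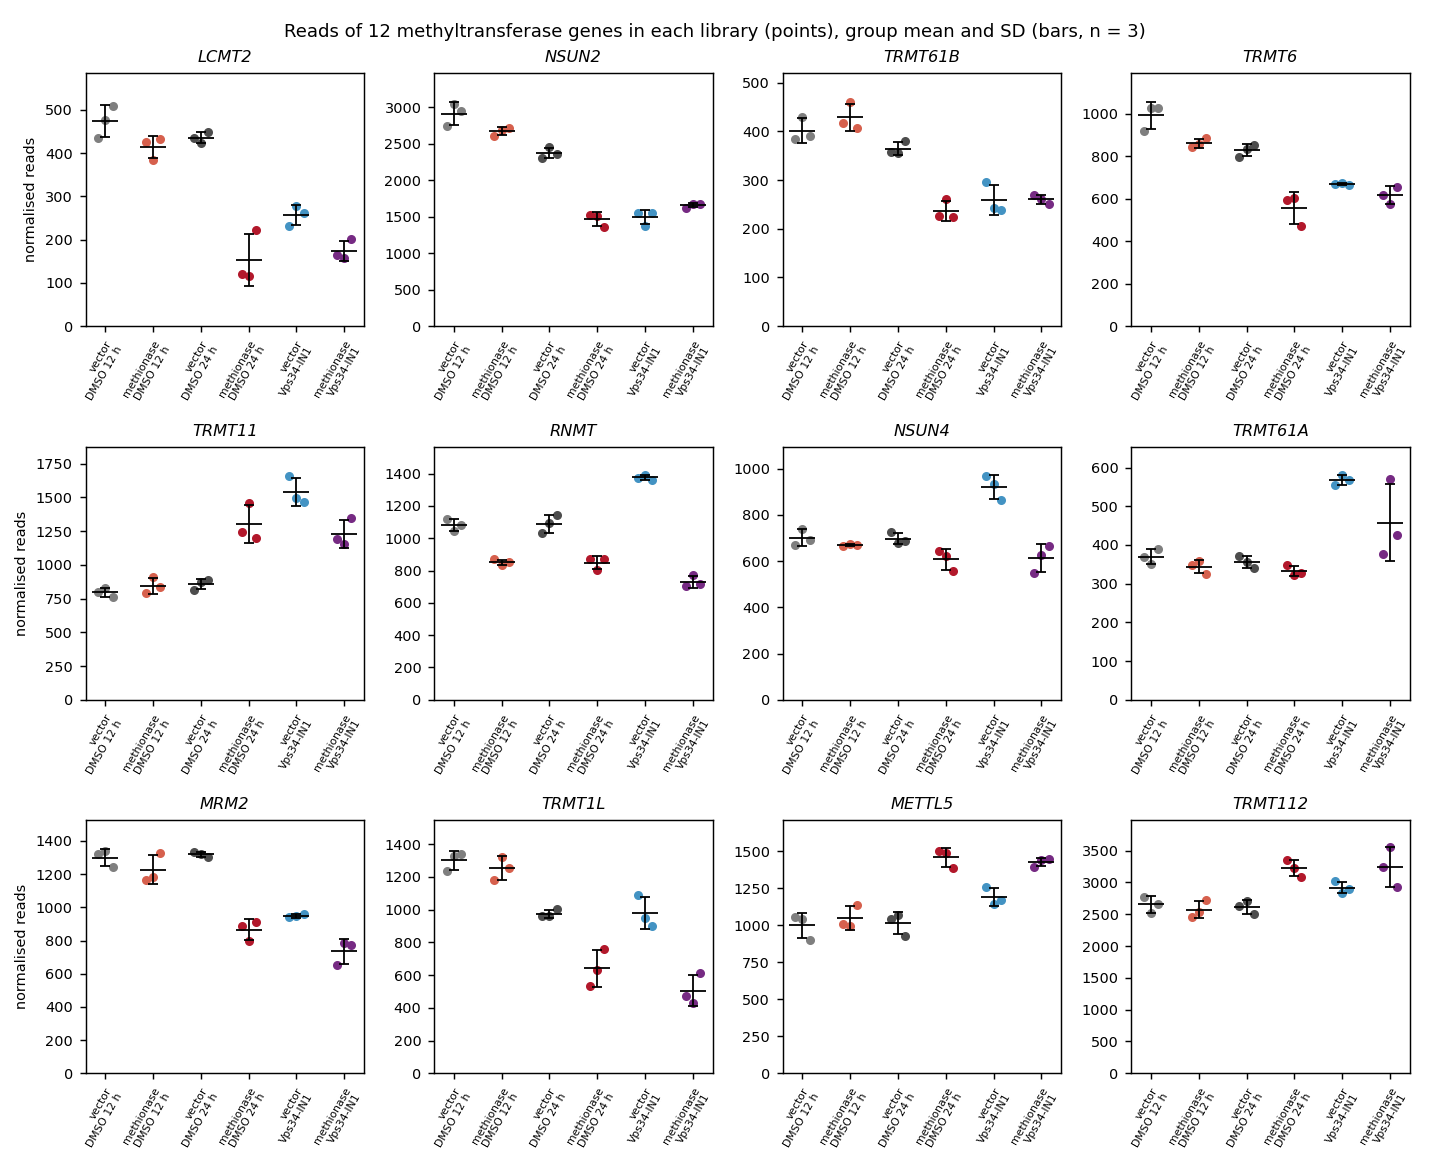
Normalised reads (y axis, from 0) of 12 methyltransferase genes in each of the 18 libraries (points), by group (x axis), with the group mean and SD (bars, n = 3). LCMT2 lies at 116 to 223 reads with methionase in DMSO at 24 h and at 423 to 449.5 with the empty vector, and RNMT is highest, at 1363 to 1389 reads, with the empty vector in Vps34-IN1.

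At 12 h, methionase against empty vector in DMSO changed 1 of the 42 genes. RNMT (chr18:13726660-13764558, plus strand, 12 exon blocks), the enzyme that methylates the guanosine of the mRNA cap, had 1122, 1044 and 1079 normalised reads in the empty vector libraries and 868, 837 and 852 with methionase. The groups did not overlap, which was also a rule for choosing the genes named with the largest changes below. RNMT fell by 0.32 ± 0.06 (SE) on the log2 scale (limma, adjusted p = 0.00774), and its mean normalised reads were 0.788 times those with empty vector. Log2 differences here and below are on the variance-stabilised scale, which shrinks differences at low reads. The ratios given as times are of mean normalised reads, so the measures need not match. In bulk RNA, fewer expressing cells and less RNA per cell cannot be told apart. None of the 42 genes rose, and over all 17755 genes tested 2.17% were called, 0.681% higher and 1.49% lower. At an unadjusted p below 0.05, 1 of the 42 genes was higher and 3 were lower, a count not made over all genes. Voom on the recovered reads called 0 higher and 1 lower, beside 141 and 337 over all genes. The RNMT call ended when methionase 12 h replicate 2 was left out (adjusted p = 0.0737), which left no called gene. The median log2 difference of the 42 genes was -0.02, beside 0.00 over all genes tested.

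At 24 h in DMSO, more methyltransferase genes were lower than higher with methionase: 15 of the 42 fell and 4 rose. Over all genes tested, 39.2% were called, 21.1% lower and 18.1% higher, while the shares among the 42 were 35.7% and 9.52%. A stricter filter on level was passed by 41 of the 42. Over the 14322 genes that passed it, 44.5% were called, 3672 lower and 2698 higher. The median log2 difference of the 42 was -0.13, beside 0.01 over all genes. Among the 23 genes for tRNA in the nucleus or cytosol, 9 fell and 3 rose, and among the 9 mitochondrial genes 4 fell and none rose. Of the 7 genes for rRNA in the nucleus or cytosol, 1 fell and 1 rose, and of the 3 cap genes 1 fell.

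LCMT2 (chr15:43323649-43330605, minus strand, a single exon), which methylates the hypermodified base wybutosine next to the anticodon of phenylalanine tRNA, had 434, 423 and 449.5 normalised reads with the empty vector. With methionase it had 119.8, 116 and 223, all below the empty vector libraries, with replicate 3 higher than the other methionase libraries. It fell by 1.20 ± 0.12 on the variance-stabilised log2 scale (limma, adjusted p = 3.24e-08). Its mean normalised reads were 0.351 times those with empty vector, a larger fall than on that scale. The other genes of wybutosine synthesis in the set differed less: TRMT12, which attaches its side chain, fell by 0.25 ± 0.07 (adjusted p = 0.00722), and TRMT5, which makes the 1-methylguanosine it starts from, had a log2 difference of 0.03.

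NSUN2 (chr5:6599239-6633291, minus strand, 19 exon blocks) encodes the main 5-methylcytosine enzyme of cytosolic tRNA. It had 2310, 2448 and 2359 normalised reads with the empty vector and 1529, 1511 and 1353 with methionase. The groups lay far apart, and NSUN2 fell by 0.67 ± 0.06 on the log2 scale (limma, adjusted p = 1.04e-08), to 0.617 times. TRMT1L (chr1:185118098-185157072, minus strand, 15 exon blocks), a relative of TRMT1 that methylates guanosine in tRNA, had 958, 958 and 1002 reads with the empty vector and 534, 628 and 761.5 with methionase. It fell by 0.56 ± 0.10 on the log2 scale (adjusted p = 0.000104), with every methionase library below every empty vector library. TRMT6 fell by 0.52 ± 0.07 (adjusted p = 5.34e-06), while its catalytic partner TRMT61A had a log2 difference of -0.08.

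TRMT11 (chr6:125986430-126203817, plus strand, 13 exon blocks), the catalytic subunit that places 2-methylguanosine in the D arm of tRNA, rose. It had 814, 874 and 886 normalised reads with the empty vector and 1246, 1460 and 1195 with methionase. The groups did not overlap, and the log2 difference was 0.55 ± 0.07 (limma, adjusted p = 3.28e-06), a level 1.52 times that of the empty vector. METTL5, which methylates an adenosine of 18S rRNA, had 1044, 1068 and 930.4 reads with the empty vector and 1501, 1489 and 1384 with methionase. It rose by 0.49 ± 0.07 (adjusted p = 5.45e-06). TRMT112, the shared partner of both enzymes, had 2626, 2715 and 2498 reads with the empty vector and 3347, 3233 and 3091 with methionase. TRMT112 rose by 0.29 ± 0.07 (adjusted p = 0.000941), and its groups did not overlap either. Of the other TRMT112 partners, BUD23 had a log2 difference of 0.08 and ALKBH8, which acts on the wobble uridine, one of -0.21, neither of them called, and THUMPD3, which methylates guanosine in the tRNA acceptor stem, fell by 0.45 ± 0.08 (adjusted p = 6.08e-05).

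Some of these genes overlap a neighbour on the opposite strand, and the strand setting of the counting is not given in the sources used here. For METTL5, 19.6% of exon bases overlap SSB, whose group mean went from 6291 with the empty vector to 7651 normalised reads with methionase. For TRMT112 the overlap is 18.8% with ESRRA, which had 867 and 882 reads, and for THUMPD3 it is 14.5% with THUMPD3-AS1, which went the other way, from 462 to 813. TRMT61B overlaps SPDYA over 25.7% of its exon bases, and SPDYA had 6.44 and 11.5 reads. TRMT13 (15.8%, LRRC39), TFB1M (15.1%, TIAM2) and TRMT2A (12.8%, RANBP1 and DGCR8 together) also overlap a neighbour. FTSJ3 overlaps PSMC5 over 9.33% of its exon bases, and PSMC5 went from 3287 to 2850 normalised reads. The values of all these genes are uncertain to that extent. The part of these neighbours in the results was not tested.

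TRMT1, which makes dimethylguanosine in the core of tRNA, had 1165, 1123 and 1180 normalised reads with the empty vector and 1363, 1281 and 1357 with methionase. The groups did not overlap, but the rise of 0.19 ± 0.07 (limma, adjusted p = 0.0338) was a weak call. It ended without any single empty vector library, and without methionase replicate 1 or 3 (adjusted p from 0.0507 to 0.107). It also ended with no filter (0.0674) and without a variance trend (0.0515).

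Of the 3 genes for 3-methylcytidine in cytosolic tRNA, METTL2B fell by 0.27 ± 0.07 (adjusted p = 0.00384) and METTL6 by 0.21 ± 0.06 (adjusted p = 0.00788), while METTL2A had a log2 difference of -0.09. The METTL6 call ended with quantile normalization (adjusted p = 0.0737), where the difference was -0.13. METTL1, the catalytic subunit for 7-methylguanosine in tRNA, fell by 0.31 ± 0.10 (limma, adjusted p = 0.0191), and its partner WDR4 had a difference of 0.00. The METTL1 call ended without replicate 3 of either group or replicate 2 of the empty vector (adjusted p from 0.0511 to 0.105). EEF1AKMT3, which overlaps 19% of its exon bases, went from 288 to 421 normalised reads.

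Among the mitochondrial genes, MRM2 (chr7:2234231-2242198, minus strand, 5 exon blocks), which methylates a ribose of the large mitochondrial rRNA, had 1332, 1323 and 1305 normalised reads with the empty vector. It had 888, 795 and 914 with methionase. The empty vector libraries lay close together and well above these, and MRM2 fell by 0.57 ± 0.07 (limma, adjusted p = 7.01e-07). TRMT61B, the mitochondrial 1-methyladenosine enzyme, had 358, 355 and 379 reads with the empty vector and 227, 261 and 223 with methionase. It fell by 0.49 ± 0.08 (adjusted p = 1.80e-05). TRMT2B, the mitochondrial 5-methyluridine enzyme, fell by 0.38 ± 0.07 (adjusted p = 9.54e-05). NSUN4, a 5-methylcytosine enzyme of the small mitochondrial rRNA, fell by 0.18 ± 0.07 (adjusted p = 0.0464). That call ended without any single empty vector library and without methionase replicate 2 or 3 (adjusted p from 0.0666 to 0.201), and with no filter, either other scaling, no variance trend or only these groups in the fit (0.0571 to 0.221).

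In the remaining groups, FTSJ3, a methyltransferase of rRNA processing, fell by 0.31 ± 0.06 (adjusted p = 9.97e-05) and RNMT by 0.33 ± 0.06 (adjusted p = 7.49e-05). RNMT had 1032, 1095 and 1144 normalised reads with the empty vector and 872, 802 and 869 with methionase. The other cap genes, CMTR1 (0.01) and CMTR2 (-0.26), were not called.

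**Figure D2:**
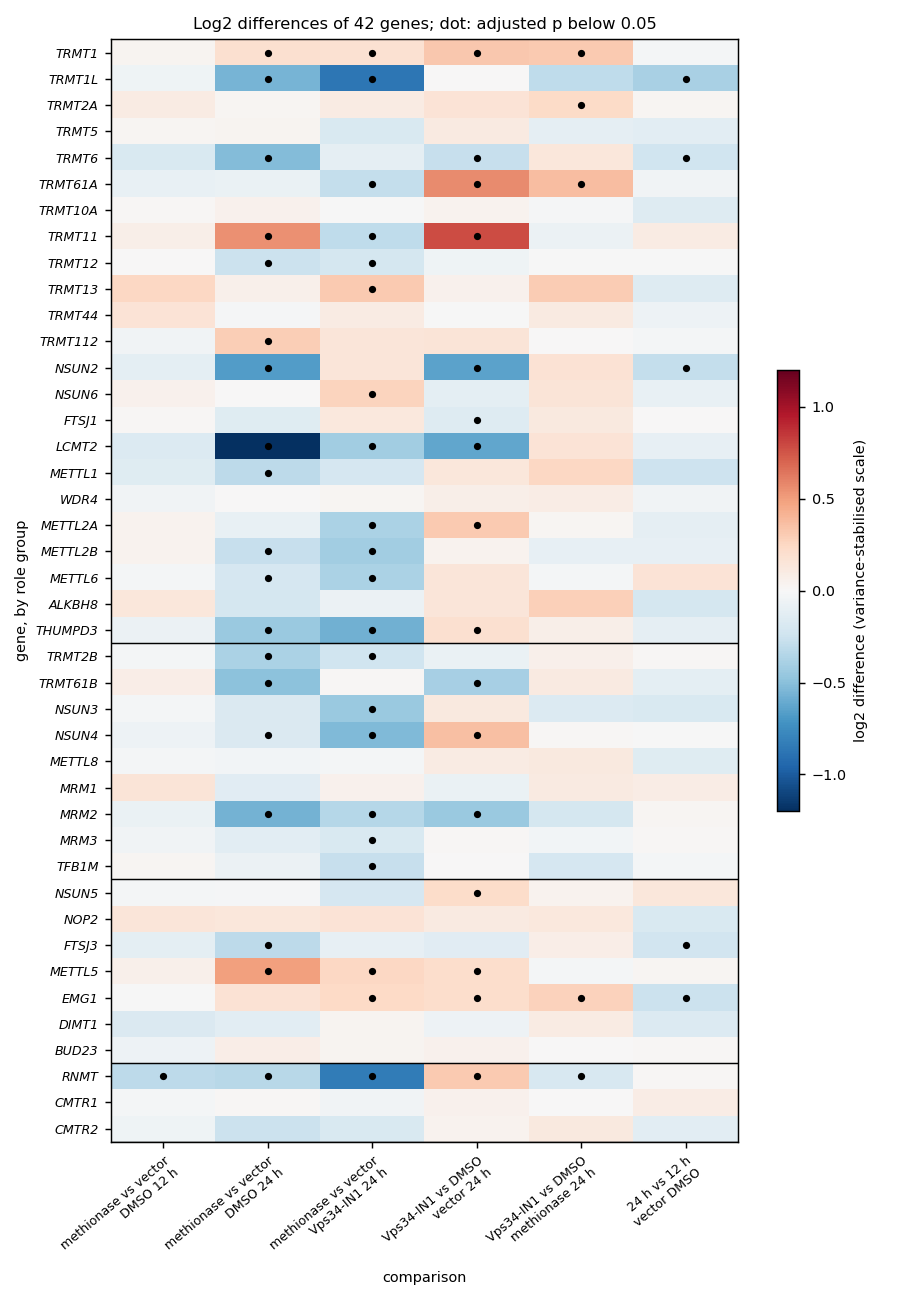
Log2 differences (colour, variance-stabilised scale) of the 42 genes (rows, in the 4 role groups separated by lines) in the 6 comparisons between 2 groups (columns), with a dot where the limma adjusted p is below 0.05. The column of methionase at 12 h holds 1 dot, and those of methionase at 24 h hold 19 in DMSO and 21 in Vps34-IN1.

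The effect of methionase in DMSO differed between 24 h and 12 h for 12 of the 42 genes, by the interaction of methionase and time. The effect was higher at 24 h for 3 genes and lower for 9, beside 5.33% and 6.33% of all genes tested (11.7% in either direction). The difference of the effects was -1.03 ± 0.17 for LCMT2 (limma, adjusted p = 0.000236), -0.57 ± 0.11 for TRMT61B (adjusted p = 0.00120), -0.55 ± 0.09 for NSUN2 (adjusted p = 0.000195) and -0.49 ± 0.10 for MRM2 (adjusted p = 0.00202). It was 0.48 ± 0.11 for TRMT11 (adjusted p = 0.00451) and 0.43 ± 0.10 for METTL5 (adjusted p = 0.00595). These 6 genes stayed called with each library left out in turn and under each other setting tried. RNMT, which was lower at both times, had a difference of -0.02.

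The other 6 genes called for this interaction were less secure. TRMT1L (-0.50 ± 0.14, adjusted p = 0.0219) lost its call without replicate 1 of the empty vector at 12 h, or of methionase replicate 2 at 12 h or replicate 1 at 24 h (0.0565 to 0.0664). TRMT112 (0.34 ± 0.09, adjusted p = 0.0189) was not called without replicate 1 of either 12 h group (0.0568 and 0.0632). TRMT2B (-0.36 ± 0.10, adjusted p = 0.0169) lost it without replicate 1 of the empty vector at 12 h or replicate 2 of either 24 h group (0.0521 to 0.0586). THUMPD3 (-0.38 ± 0.11, adjusted p = 0.0257) lost it without replicate 1 of the empty vector at 12 h, replicate 1 or 3 of methionase at 12 h or replicate 1 or 2 of the empty vector at 24 h (0.0532 to 0.0695). TRMT6 (-0.33 ± 0.10, adjusted p = 0.0360) lost its call without 8 of the 12 libraries, all but empty vector 12 h replicates 2 and 3 and methionase 24 h replicates 1 and 2 (0.0543 to 0.107). METTL2B (-0.32 ± 0.10, adjusted p = 0.0440) lost it without 9 of them, all but empty vector 12 h replicate 3 and methionase 24 h replicates 1 and 3 (0.0535 to 0.128). Without empty vector 12 h replicate 1 the count fell from 12 to 6, with no count given over all genes. With equal library medians 3 genes were higher and 6 lower, beside 1431 and 722 over all genes, and TRMT6 (0.0850), METTL2B (0.0927) and THUMPD3 (0.0595) were not called. With no filter TRMT1L (0.0566), TRMT6 (0.0706), METTL2B (0.0897) and THUMPD3 (0.0573) were not called, and without a variance trend neither TRMT6 (0.0513) nor METTL2B (0.0676) was.

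In the empty vector in DMSO, 24 h against 12 h gave 5 lower genes and none higher, beside 6.88% lower and 4.61% higher over all genes tested (11.5% in all). At an unadjusted p below 0.05, 1 was higher and 10 were lower, a count not made over all genes. Voom called 0 higher and 5 lower, beside 904 and 1378 over all genes. NSUN2 had 2745, 3044 and 2948 normalised reads at 12 h and 2310, 2448 and 2359 at 24 h, without overlap. It fell by 0.29 ± 0.06 (limma, adjusted p = 0.00381), and this call held with each library left out. TRMT1L went from 1236, 1330 and 1337 to 958, 958 and 1002 reads, a difference of -0.39 ± 0.10 (adjusted p = 0.0140). Its call ended without 12 h replicate 2 or 3 or 24 h replicate 1 (0.0537 to 0.0648). EMG1, which methylates a pseudouridine of 18S rRNA, went from 1004, 1048 and 991 to 812, 821 and 866 reads, a difference of -0.26 ± 0.07 (adjusted p = 0.0167).

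The EMG1 call ended without 12 h replicate 2 or 24 h replicate 1 or 2 (0.0514 to 0.0797), and 30.7% of EMG1 exon bases overlap LPCAT3, which went from 380.5 to 331 normalised reads. TRMT6 went from 922, 1029 and 1027 to 799, 834 and 855 reads, a difference of -0.24 ± 0.07 (limma, adjusted p = 0.0369), and lost its call without 12 h replicate 2 or 3 or any of the 24 h libraries (0.0628 to 0.147). FTSJ3, with a difference of -0.23 ± 0.06 (adjusted p = 0.00892), lost it without 12 h replicate 2 or 24 h replicate 1 (0.0570 and 0.0725). Its neighbour PSMC5 went from 3768 to 3287 reads. The count of 5 was 1 without either of these libraries, and 3 without 12 h replicate 3 or 24 h replicate 2. No such counts are given over all genes. With quantile normalization 1 gene was called higher and 4 lower, beside 830 and 840 over all genes. With only these groups in the fit 1 was higher and 7 lower, beside 1386 and 2121 over all genes. The TRMT6 call also ended with no filter (0.0746), no variance trend (0.0536) or quantile normalization (0.0887).

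With the empty vector at 24 h, Vps34-IN1 against DMSO gave 10 higher and 6 lower genes among the 42, or 23.8% and 14.3%. Over all genes tested the shares were 20.2% and 19.9%, or 40.1% together. The split was 7 higher and 7 lower with quantile normalization, beside 3299 and 3500 over all genes. The median log2 difference of the 42 was 0.05, beside 0.00 over all genes. By role, 5 of the 23 cytosolic or nuclear tRNA genes rose and 4 fell, 1 of the 9 mitochondrial genes rose and 2 fell, 3 of the 7 rRNA genes rose, and 1 of the 3 cap genes rose. The empty vector libraries in DMSO are also the controls of the methionase comparison above, so the differences of the comparisons are not independent and are given side by side only.

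TRMT11 had 1659, 1498 and 1465 normalised reads with Vps34-IN1, against 814, 874 and 886 in DMSO. It rose by 0.78 ± 0.07 on the log2 scale (limma, adjusted p = 2.11e-08), to 1.80 times, and all drug libraries lay above all DMSO libraries. TRMT61A (chr14:103529184-103537073, plus strand, 4 exon blocks), the catalytic subunit of the tRNA 1-methyladenosine enzyme, had 555, 581 and 567 reads with the drug and 372, 356 and 339.7 in DMSO. TRMT61A rose by 0.57 ± 0.09 (adjusted p = 1.69e-05), to 1.59 times, while TRMT6 fell by 0.28 ± 0.07 (adjusted p = 0.00391), with 672, 674 and 663 reads against 799, 834 and 855. NSUN4 had 967, 933 and 864.5 reads with the drug and 724, 678 and 688 in DMSO, without overlap. It rose by 0.36 ± 0.07 (adjusted p = 0.000187). TRMT1 had 1336, 1503 and 1573 reads with the drug against 1165, 1123 and 1180, and rose by 0.32 ± 0.07 (adjusted p = 0.000793).

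NSUN2 fell from 2310, 2448 and 2359 normalised reads in DMSO to 1551, 1379 and 1544 with the drug, by 0.64 ± 0.06 on the log2 scale (limma, adjusted p = 1.75e-08). LCMT2 had 231.5, 277 and 261 reads with the drug, against 434, 423 and 449.5, and fell by 0.62 ± 0.12 (adjusted p = 0.000169). In both genes every drug library lay below every DMSO library. MRM2 had 939, 947 and 961 reads with the drug and 1332, 1323 and 1305 in DMSO. It fell by 0.44 ± 0.07 (adjusted p = 1.77e-05). TRMT61B had 295, 243 and 238 reads with the drug against 358, 355 and 379, and fell by 0.40 ± 0.08 (adjusted p = 0.000210). RNMT rose by 0.32 ± 0.06 (adjusted p = 0.000135), with 1375, 1389 and 1363 reads against 1032, 1095 and 1144, and METTL2A rose by 0.32 ± 0.07 (adjusted p = 0.000675).

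The remaining 5 calls of this comparison each ended when some single libraries were left out. They were FTSJ1, which methylates ribose in the anticodon loop (-0.15), THUMPD3 (0.19), NSUN5 (0.22), METTL5 (0.21) and EMG1 (0.21). FTSJ1 and THUMPD3 lost their calls without DMSO replicate 1 or 3 or any of the 3 drug libraries (adjusted p from 0.0567 to 0.180). The FTSJ1 call also ended with equal library medians (-0.11, adjusted p = 0.184), no filter (0.0837) and no variance trend (0.0684). The THUMPD3 call also ended with quantile normalization (0.148), no filter (0.0950) and no variance trend (0.0660). NSUN5 lost its call without DMSO replicate 1 or 3 or drug replicate 1 or 3 (0.0764 to 0.107), with quantile normalization (0.0834) or with no filter (0.0637). METTL5 lost it without DMSO replicate 3 or drug replicate 1 (0.105 and 0.0739) and with quantile normalization (0.0634), and EMG1 without DMSO replicate 1 or 2 or drug replicate 2 or 3 (0.0531 to 0.0776).

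With methionase at 24 h, Vps34-IN1 against DMSO gave 4 higher genes and 1 lower gene, beside 2.95% higher and 4.98% lower over all genes tested (7.93% in all). At an unadjusted p below 0.05, 8 were higher and 5 lower, a count not made over all genes. With quantile normalization or equal library medians 7 were higher and none lower, beside 703 higher and 913 lower over all genes with the first and 899 and 605 with the second. Voom called 4 higher and none lower, beside 486 and 793 over all genes. When only these groups entered the fit, none of the 42 and 1.67% of all genes were called. TRMT1 had 1363, 1281 and 1357 normalised reads in DMSO and 1751, 1742 and 1555 with the drug. It rose by 0.32 ± 0.07 (limma, adjusted p = 0.00682), and its groups did not overlap. TRMT61A had 349, 322 and 327 reads in DMSO and 377, 569.8 and 427 with the drug, where replicate 2 lay well above the others. It rose by 0.37 ± 0.09 (adjusted p = 0.0112), and the call ended without that library (0.0699).

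EMG1 had 1064, 918 and 869 normalised reads in DMSO and 1070, 1215 and 1216 with the drug, where the lowest drug library was barely above the highest DMSO library. It rose by 0.28 ± 0.07 (limma, adjusted p = 0.0140), and the call ended without DMSO replicate 3 or drug replicate 2 (0.0838 and 0.0532). TRMT2A, which makes 5-methyluridine in cytosolic tRNA, had 1435, 1449 and 1474 reads in DMSO and 1749, 1785 and 1623 with the drug. Its rise of 0.23 ± 0.07 (adjusted p = 0.0363) was not called without any single DMSO library or without drug replicate 1 or 2 (0.0691 to 0.106), with no filter (0.0715) or without a variance trend (0.0628). The neighbours of TRMT2A went from 8411 to 9699 normalised reads (RANBP1) and from 757 to 553 (DGCR8), and LPCAT3, the neighbour of EMG1, from 277 to 293. Their part in these calls was not tested. RNMT had 872, 802 and 869 reads in DMSO and 702, 771 and 717 with the drug. Its fall of 0.19 ± 0.06 (adjusted p = 0.0401) was not called without DMSO replicate 1 or 3 or drug replicate 1 or 3 (0.0689 to 0.117). It was also not called with no filter, without a variance trend, with either other scaling, with voom or with only these groups in the fit (0.0526 to 0.307). The count of 5 became 3 without DMSO replicate 3, with no count given over all genes.

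With Vps34-IN1 present, methionase against empty vector at 24 h gave 5 higher and 16 lower genes, or 11.9% and 38.1% of the 42. Over all genes tested the shares were 17.3% and 22.2%, or 39.5% together. Over the 14322 genes that passed the stricter filter, 45.3% were called, 2559 higher and 3936 lower. The split was 10 higher and 11 lower with quantile normalization, where all genes gave 2984 higher and 3255 lower. It was 8 and 14 with equal library medians, where all genes gave 3738 higher and 3429 lower. By role, 9 of the 23 cytosolic or nuclear tRNA genes fell and 3 rose, 6 of the 9 mitochondrial genes fell and none rose, 2 of the 7 rRNA genes rose and 1 of the 3 cap genes fell. The median log2 difference of the 42 was -0.10, beside 0.01 over all genes.

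TRMT1L had 1091, 949 and 899 normalised reads with the empty vector and 471, 428 and 609.6 with methionase. All methionase libraries lay far below, and TRMT1L fell by 0.87 ± 0.10 on the log2 scale (limma, adjusted p = 4.07e-07), to 0.513 times. RNMT had 1375, 1389 and 1363 reads with the empty vector and 702, 771 and 717 with methionase. It fell by 0.84 ± 0.06 (adjusted p = 3.02e-10), to 0.531 times. THUMPD3 had 1340, 1384 and 1386 reads with the empty vector and 735, 937 and 1032 with methionase, and fell by 0.57 ± 0.08 (adjusted p = 3.12e-06). NSUN4 had 967, 933 and 864.5 reads with the empty vector and 548, 626 and 667 with methionase, and fell by 0.53 ± 0.07 (adjusted p = 2.37e-06). None of these 4 genes overlapped between the groups, which was a condition for naming them.

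Further falls were those of NSUN3, which modifies the anticodon of mitochondrial methionine tRNA (0.45 ± 0.07 on the log2 scale, adjusted p = 4.41e-05), METTL2B (0.42 ± 0.07), METTL2A (0.38 ± 0.07), METTL6 (0.38 ± 0.06) and MRM2 (0.34 ± 0.07). The 3 genes for 3-methylcytidine in cytosolic tRNA, METTL2A, METTL2B and METTL6, were all called lower here, beside 22.2% of all genes tested. METTL2A and METTL2B share sequence, so their reads are uncertain and these are not separate observations. With methionase in DMSO at 24 h METTL2A was not called (-0.09). TFB1M fell by 0.28 ± 0.07 (adjusted p = 0.00242), TRMT2B by 0.24 ± 0.07 (adjusted p = 0.00733) and TRMT11 by 0.31 ± 0.07 (adjusted p = 0.00216). With quantile normalization these last 3 were not called, with differences of -0.17, -0.12 and -0.18 (adjusted p from 0.0534 to 0.161). LCMT2 fell by 0.41 ± 0.12 (limma, adjusted p = 0.00712), with 164.5, 158 and 200.6 normalised reads against 231.5, 277 and 261.

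METTL5 had 1257, 1143 and 1168 normalised reads with the empty vector and 1396, 1440 and 1450 with methionase, without overlap, and rose by 0.25 ± 0.07 (limma, adjusted p = 0.00611). EMG1 had 918, 1019 and 994 reads with the empty vector and 1070, 1215 and 1216 with methionase. It rose by 0.24 ± 0.07 (adjusted p = 0.00870), a call that ended without empty vector replicate 1 (0.0515). LPCAT3 had 297 reads with the empty vector and 293 with methionase. NSUN6, which methylates a cytosine in the acceptor stem of some tRNAs, had 291, 334 and 309 reads with the empty vector and 452, 357.5 and 369.8 with methionase. Its rise of 0.27 ± 0.10 (adjusted p = 0.0318) ended without empty vector replicate 1 or 3 or methionase replicate 1 (0.0714 to 0.184) and with no filter (0.0639).

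The other 5 calls of this comparison were also lost without single libraries. TRMT1 (0.19) lost its call without empty vector replicate 1 or 2 or methionase replicate 1 or 2 (adjusted p from 0.0581 to 0.225), as did TRMT12 (-0.21, 0.0594 to 0.0793). TRMT13 (0.31), a ribose methyltransferase of the acceptor stem, lost it without empty vector replicate 1 or methionase replicate 3 (0.123 and 0.111). TRMT61A (-0.28) lost it without methionase replicate 1 (0.125), and MRM3 (-0.18), a ribose methyltransferase of the large mitochondrial rRNA, without empty vector replicate 1 or methionase replicate 1 or 3 (0.0583 to 0.199). With only these groups in the fit, TRMT1, TRMT12, TRMT61A and MRM3 were not called (0.0601 to 0.104). TRMT1 also lost its call with no filter (0.0774) and no variance trend (0.0598), TRMT12 with equal library medians (0.0549) and TRMT61A with quantile normalization (0.100). MRM3 lost it with no filter and with either other scaling (0.0519 to 0.481). GLOD4, which overlaps 36.4% of MRM3 exon bases, went from 2107 with the empty vector to 1684 normalised reads with methionase.

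Whether methionase acted differently with and without the drug was tested as the interaction of methionase and Vps34-IN1 at 24 h. Among the 42 genes, 5 had a higher and 4 a lower methionase effect with the drug, or 11.9% and 9.52%, beside 9.92% and 11.9% of all genes tested (21.8% in either direction). With quantile normalization the split was 7 and 3, beside 1848 and 1800 over all genes. NSUN2 fell with methionase in DMSO (-0.67) and had a difference of 0.15 with the drug, so that the effects differed by 0.81 ± 0.09 (limma, adjusted p = 5.36e-07). Its reads were 1622, 1673 and 1680 with both treatments. They were lower in every library with the drug alone (1551, 1379 and 1544) and with methionase alone (1529, 1511 and 1353). Neither difference was called (limma, 0.15 from the drug alone, adjusted p = 0.0571, and 0.17 from methionase alone, adjusted p = 0.0808). LCMT2 (-1.20 in DMSO and -0.41 with the drug) differed by 0.78 ± 0.17 (adjusted p = 0.00146), TRMT61B (-0.49 and 0.01) by 0.50 ± 0.11 (adjusted p = 0.00168) and TRMT6 (-0.52 and -0.10) by 0.41 ± 0.10 (adjusted p = 0.00536).

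TRMT11 rose with methionase in DMSO and fell with methionase in Vps34-IN1, and the effects differed by -0.86 ± 0.11 (limma, adjusted p = 4.07e-06). It had 1188, 1152 and 1347 normalised reads with both treatments. RNMT fell in both settings, and by more with the drug (-0.33 and -0.84), a difference of -0.51 ± 0.08 (adjusted p = 0.000104). NSUN4 (-0.18 and -0.53) differed by -0.35 ± 0.10 (adjusted p = 0.0114). The calls of these 7 genes held with each library left out and under each other setting tried. FTSJ1 (0.27 ± 0.09, adjusted p = 0.0261) lost its call without DMSO replicate 1 or 3 or drug replicate 1 of the empty vector, or drug replicate 2 of methionase (0.0526 to 0.0752). METTL2A (-0.29 ± 0.10, adjusted p = 0.0323) lost it without DMSO replicate 1 or 3 or drug replicate 1 of the empty vector, or DMSO replicate 1 or drug replicate 1 or 3 of methionase (0.0599 to 0.0874). Neither was called with only these groups in the fit (0.0626 and 0.0746), nor METTL2A with no filter (0.0597) or quantile normalization (0.0676).

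**Figure D3:**
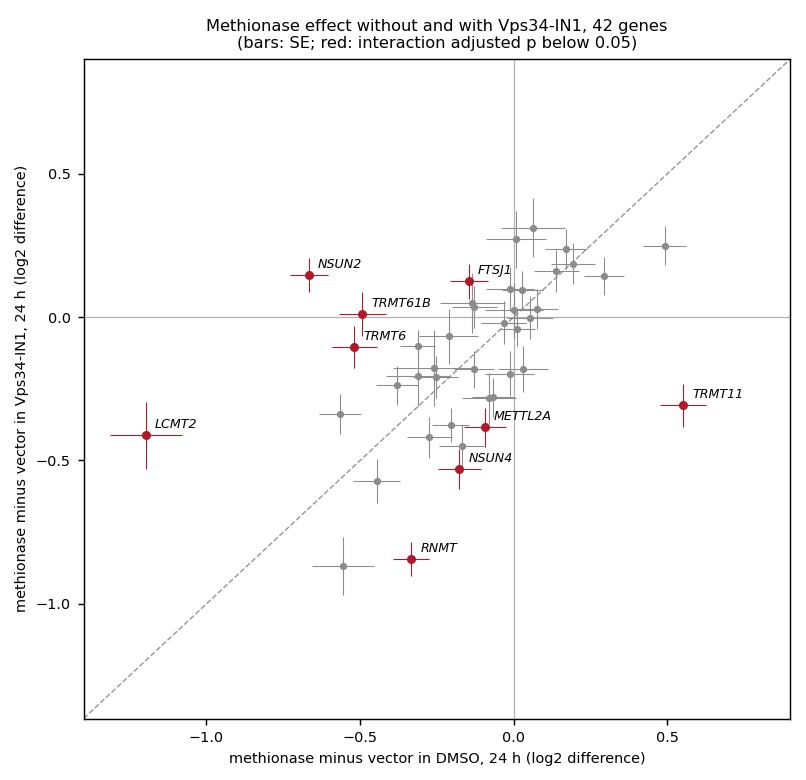
Methionase minus empty vector at 24 h in DMSO (x axis) and in Vps34-IN1 (y axis), as log2 differences of the 42 genes with SE bars; red points are the 9 genes with an interaction adjusted p below 0.05, and the dashed line marks equal effects. NSUN2, LCMT2, TRMT61B and TRMT6 lie above the line, and TRMT11 and RNMT lie below it.

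The balance of partner genes was followed as the ratio of their reads per kilobase. TRMT6 to TRMT61A was 3.70 ± 0.30 (SD, n = 3) with the empty vector at 12 h, 3.46 ± 0.24 with methionase at 12 h and 3.21 ± 0.25 with the empty vector at 24 h. At 24 h it was 2.30 ± 0.30 with methionase in DMSO, 1.62 ± 0.04 with the empty vector in Vps34-IN1 and 1.92 ± 0.47 with methionase in Vps34-IN1. Every library of these last 3 groups lay below every library of the first 3. METTL1 to WDR4 was lowest with methionase in DMSO at 24 h (0.263 ± 0.041) and highest with the empty vector at 12 h (0.428 ± 0.078). These groups differ in both time and transgene. With the empty vector in DMSO at 24 h the ratio was 0.355 ± 0.067. The libraries of that group ran from 0.299 to 0.429, barely above the 0.216 to 0.294 with methionase. The overlap of METTL1 with EEF1AKMT3, given above, also bears on this ratio. METTL2A to METTL2B was 1.22 ± 0.0047 with the empty vector in DMSO at 24 h, 1.40 ± 0.04 with methionase in DMSO at 24 h and 1.50 ± 0.12 with the empty vector in Vps34-IN1, subject to the shared sequence shown above.

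**Figure D4:**
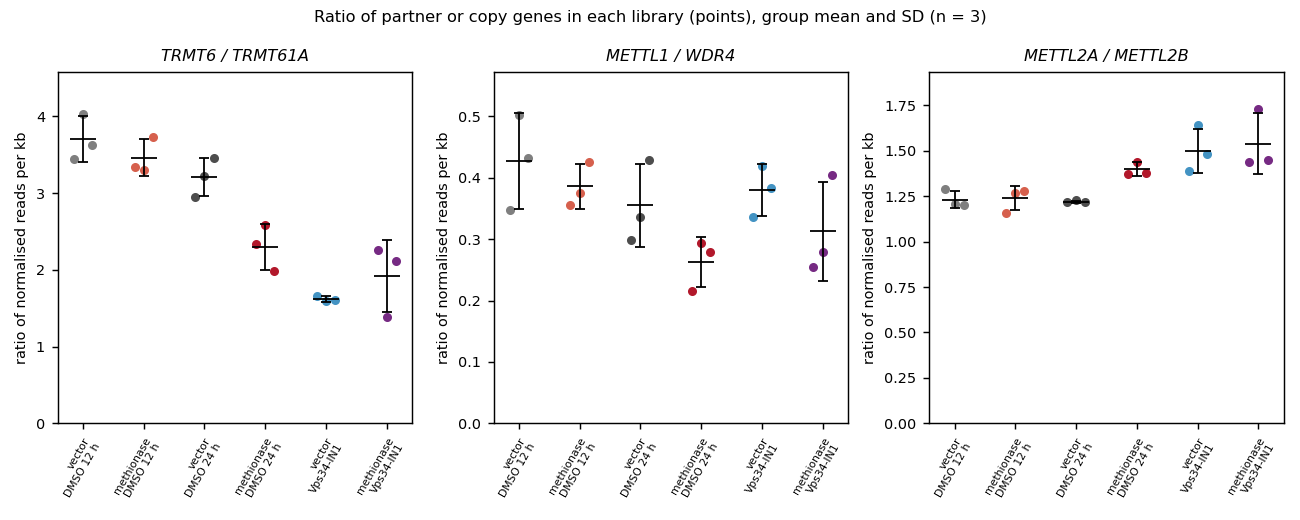
Ratio of normalised reads per kilobase (y axis, from 0) for TRMT6 to TRMT61A, METTL1 to WDR4 and METTL2A to METTL2B in each library (points), by group (x axis), with group mean and SD (bars, n = 3). The TRMT6 to TRMT61A ratio is 2.95 to 4.03 in the first 3 groups and 1.39 to 2.58 in the last 3.

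Across the 6 comparisons between 2 groups, 12 of the 42 genes were called in none, 10 in 1, 7 in 2, 10 in 3, 2 in 4 and 1, RNMT, in 5. Over all genes tested, 29.5% were called in none, 22.5% in 1, 30.9% in 2, 12.8% in 3, 3.57% in 4, 0.574% in 5 and 0.062% in 6. The comparisons share groups, so these counts are a description, and the RNMT call for the drug with methionase is among the weak ones. The genes without a call in these comparisons included WDR4, BUD23, NOP2 and DIMT1, which act in tRNA 7-methylguanosine formation or on rRNA, and the cap genes CMTR1 and CMTR2. The 6 genes of this set that belong to the NOP2/NSUN family of 5-methylcytosine enzymes did not share a pattern of calls. With methionase at 24 h, NSUN2 was called lower in DMSO and not in Vps34-IN1, and its interaction with the drug was called. NSUN3 was called lower in Vps34-IN1, and in DMSO it had a difference of -0.17 (limma, adjusted p = 0.0731). The interaction was not called for NSUN3, so its effect is not shown to differ between these settings. NSUN4 was called lower in both, and its interaction was called. NSUN6 was called higher in Vps34-IN1, where NSUN2 had a difference of 0.15. The NSUN4 call in DMSO and the NSUN6 call were each lost without some single libraries. Over all genes tested, 39.2% were called in DMSO and 39.5% in Vps34-IN1. NOP2 had log2 differences of 0.14 in DMSO and 0.16 in Vps34-IN1 and NSUN5 of -0.01 and -0.20.

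Other lists of related genes are given by their counts beside the 42. With methionase in DMSO at 24 h, 17 of 53 other tRNA modification enzymes were called lower and 5 higher (median log2 difference -0.04), 10 of 33 other RNA methyltransferase genes and partners were lower and 8 higher (-0.11), and 41 of 98 ribosome assembly factors were lower and 5 higher (-0.10). With Vps34-IN1 and the empty vector, 17 of the 53 tRNA modification enzymes were higher and 8 lower (0.13), 10 of the 33 RNA methyltransferase genes were higher and 9 lower (0.00), and 31 of the 98 assembly factors were higher and 17 lower (0.04). With methionase in Vps34-IN1, 16 of the 53 were lower and 4 higher (-0.10), 11 of the 33 lower and 3 higher (-0.05), and 31 of the 98 lower and 8 higher (-0.09). Over all genes tested, the shares called with methionase in DMSO at 24 h were 21.1% lower and 18.1% higher. They were 20.2% higher and 19.9% lower with Vps34-IN1 and the empty vector. The shares with methionase in Vps34-IN1 were 22.2% lower and 17.3% higher. The medians over all genes tested in these comparisons were 0.01, 0.00 and 0.01.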

How the data were processed

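Poly-A RNA of 18 HEK293T libraries, 3 in each of 6 groups taken from the labels and all with 1 batch label, was measured with a strand-marking kit, per the labels' protocols. The hg38 build and the tools limma, DESeq2, featureCounts and STAR (2.7.10b) are named, without their roles, per the submitters' processing notes. The annotation and the strand setting are not given in the sources used here. The authors deposited 1 table of variance-stabilised log2 values, with a lowest value of 5.449. Of its 37097 lines 1 named no gene, took at most 0.00216% of the reads of a library and was left out.

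Undoing the transformation gave reads, and 100% of values were whole to within 0.01 of a read. Each pair of libraries of a group differed by a chi-square per gene of at least 2.37, so none was counted as a copy. Genes with a mean at least 0.5 above the lowest value were tested, which kept 17755 genes and all 42 described here. The deposited log2 values of all 18 libraries entered limma (3.58.1, under R 4.3.3) with a mean for each group and moderated variances that follow a trend with level. The threshold for a call was an adjusted p (Benjamini-Hochberg) of 0.05 within each of 8 comparisons. On this scale a difference is too small for a gene with few reads. The alternatives were no filter, a stricter filter at 1, quantile normalization, equal library medians, no variance trend, a replicate block, voom on the recovered reads, only the groups compared and each library left out.

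Genes named by rule in each comparison of 2 groups were called and without overlap. Up to 4 with the largest rise and 4 with the largest fall were taken. Their lack of overlap was set by this rule and is not a further result. Every gene called for an interaction was also named. Others of a role group were named after their values were seen. The 42 genes and all lists were chosen with earlier results of these data known. Coordinates, exons and coding sequences are from GENCODE on GRCh38, and promoters from RefSeq GRCh38.p14.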

Additional observations from a re-analysis of the deposited data

Results flagged for a closer look

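The effect of methionase differed between settings, by the limma test of the interaction, for genes given here with the difference of the effects on the log2 scale. Between Vps34-IN1 and DMSO at 24 h it was 0.81 for NSUN2, 0.78 for LCMT2, 0.50 for TRMT61B, 0.41 for TRMT6, 0.27 for FTSJ1, -0.29 for METTL2A, -0.35 for NSUN4, -0.51 for RNMT and -0.86 for TRMT11. Between 24 h and 12 h in DMSO it was 0.48 for TRMT11, 0.43 for METTL5, 0.34 for TRMT112, -0.32 for METTL2B, -0.33 for TRMT6, -0.36 for TRMT2B, -0.38 for THUMPD3, -0.49 for MRM2, -0.50 for TRMT1L, -0.55 for NSUN2, -0.57 for TRMT61B and -1.03 for LCMT2. LCMT2, NSUN2, TRMT61B, TRMT6 and TRMT11 appear in both lists with opposite signs. The lists share the libraries of both vectors in DMSO at 24 h, which enter them with opposite signs.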

How the results depend on the processing

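Of the 88 calls of a gene in a comparison, 51 held under every alternative run, 32 were lost without at least 1 library and 27 under at least 1 other setting, and none reversed. The count of called genes for methionase at 12 h, 1, was 3 with only the groups compared, where 8.79% of all genes were called. For Vps34-IN1 with methionase the count of 5 was 0 with only the groups compared (1.67% of all genes) and 3 both without a variance trend (6.73%) and with no filter (2.81%). For 24 h against 12 h it was 8 with only the groups compared (19.8%), in place of 5. Leaving out each library gave 0 to 1 calls for methionase at 12 h, 16 to 19 at 24 h in DMSO, 15 to 25 in Vps34-IN1, 12 to 15 for the drug with empty vector, 3 to 7 for the drug with methionase, 1 to 7 for time, 7 to 11 for the interaction with the drug and 6 to 12 for that with time. Counts over all genes with a library left out are not given, here or above. A change in these counts therefore does not set the 42 genes apart. Same-numbered replicates correlated between -0.31 and 0.35, and 6 of 18 libraries correlated best with their own number. The replicate numbers were therefore not taken to pair the samples. With a replicate block the counts in the same order were 1, 18, 21, 15, 5, 5, 9 and 12. The shares of all genes called with the block, in that order, were 1.92, 38.6, 39.1, 39.9, 7.81, 11.1, 21.2 and 11.3%. The block ended 3 calls, those of NSUN4 for methionase in DMSO at 24 h (adjusted p = 0.0567) and of FTSJ1 (0.0561) and RNMT (0.0547) for the drug with empty vector and with methionase, and added 1. Of the 42 genes, 41 passed the stricter filter. The reads of MRM1, at most 29.5 per library, limit what could be detected for it.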
